A study of Drosophila melanogaster and Drosophila biarmipes with 20 samples.

Results

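The regions described here are stretches of open chromatin in the 3 Mb next to the centromere of the autosomal arms 2L, 3L and 3R of Drosophila melanogaster. The assay was ATAC-seq, which reads out DNA that a transposase can reach and tag. Overlapping entries of the 10 single-library lists were merged into 98646 union regions (build dm6), and a region belonged to the pericentromeric windows by position alone. Members started at or beyond 20.5 Mb on 2L, started at or beyond 25.1 Mb on 3L, or ended within the first 3 Mb of 3R. This gave 2051 regions, of which 1586 lay on 2L, 326 on 3L and 139 on 3R. The rest of the 3 arms held 67744 regions, namely 19658 on 2L, 22040 on 3L and 26046 on 3R. At the borders, the outermost members were 2L:20514012-20514589 (listed in 6 libraries), 3L:25111750-25111867 (2 libraries) and 3R:2996064-2996346 (4 libraries). The nearest regions outside were 2L:20513099-20513543 (2 libraries), 3L:25109176-25109773 (10 libraries) and 3R:3001191-3001353 (3 libraries).

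Chromatin next to centromeres is largely heterochromatin, which is rich in repeats, carries methylated histone H3 lysine 9 bound by heterochromatin protein 1, and holds few genes. The genes that do lie in it are often spread over very long introns, and several of them, such as lt, are known in the fly to need a heterochromatic neighbourhood for normal expression. The passage from gene-rich to repeat-rich sequence falls at different distances from the centromere on each arm, so a window of fixed size takes in unlike amounts of both.

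The libraries came from male wings at 5 stages, each given as the percentage of the pupal period that had passed, with wing imaginal discs at 0% and pupal wings at 48%, 60%, 69% and 78%. No strain, genotype or treatment distinguished the groups, all flies were kept at the same temperature, and each library pooled tissue of several animals. Each stage had 2 libraries that the labels call biological replicates. The labels do not say how animals were divided between them, so p-values measure the spread between these libraries. The protocol names 47% where the sample labels have 48%, and wings past 60% were cut up ahead of the disruption step.

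The 10 libraries held 56282342 to 119278540 tags and listed 41485 to 80705 entries. Both 48% lists were among the 3 shortest. The fragment length set by the peak caller was 50 to 58 bp in 6 libraries and 138 to 208 bp in the 4 others, which were replicate 1 at 0%, both libraries at 48% and replicate 2 at 60%. The share of tags inside listed regions was 56.1% and 59.2% at 0%, 62.5% and 62.8% at 48%, 55.35% and 53.1% at 60%, 46.3% and 46.9% at 69%, and 37.5% and 39.2% at 78%. The wing blade markers nub, vg, ap, rn and bi each had regions listed in all 10 libraries, with 68 to 104 regions per library over the 5 genes. Markers of other tissues were listed as well: 68 to 130 regions at 5 muscle genes, 47 to 104 at 4 hinge and notum genes, 20 to 44 at 4 hemocyte genes and 15 to 33 at 2 trachea genes. The muscle genes had 108 and 130 at 0% and 68 to 99 later. At bt these were 36 and 42 against 5 to 10, while at Mef2, twi, how and sls disc and pupal libraries overlapped. Hinge and notum genes had 81 and 104 at 0% (47 to 94 later), hemocyte genes 32 and 44 (20 to 33), and trachea genes 24 and 33 (15 to 28). The part of these markers in the window values at 0% was not tested. The 4 neuron markers (elav, brp, Syt1 and nSyb) had 24 and 33 regions at 0%, 17 and 16 at 48%, 27 and 23 at 60%, 42 and 38 at 69%, and 31 and 43 at 78%, and nSyb had none at 0%.

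Open regions were sparser in the windows than in the rest of the arms, least so on 2L and most so on 3R. Taking the 3 arms together, a library listed 59.9 to 127 regions per Mb in the windows (median 101) and 267 to 515 per Mb in the rest (median 418). The windows were the sparser part in all 10 libraries, by 2.08 ± 0.11 on the log2 scale (SD, n = 10 libraries, mean log2 ratio -2.08, two-sided exact sign-flip permutation test, adjusted p = 0.00195, which is the smallest 10 libraries can give). On 2L the mean log2 ratio was -0.77 ± 0.12, that is 0.586 times the density of the rest of the arm. On 3L it was -3.65 ± 0.39, or 0.0798 times. On 3R it was -5.94 ± 1.46, or 0.0163 times (SD, n = 10 libraries each, adjusted exact p = 0.00195 each, 4 comparisons). The densities count listed regions per Mb of assembled sequence. How much of each window could take up uniquely mapped reads was not tested.

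Within the windows, most members lay in the outer part of 2L. The 1.5 Mb of 2L nearest the centromere held 380 union regions and the next 1.5 Mb held 1206. On 3L the inner and outer parts held 111 and 215 regions, and on 3R 62 and 77. The step on 2L came between 1 and 1.5 Mb from the centromere-side end. There were 39 regions from 1000 to 1250 kb, and 199 from 1250 to 1500 kb. Protein-coding genes per bin did not run parallel to regions. The bin from 1000 to 1250 kb held 1 gene, that from 1250 to 1500 kb 22, that from 1500 to 1750 kb 9 with 215 regions, and that from 2000 to 2250 kb 95 with 112 regions. The last of these bins takes in part of a cluster of 111 histone gene copies (2L:21416953-21541681), which held only 4 union regions. On 3R, 24 of the 139 regions fell in the single bin from 2250 to 2500 kb.

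**Figure D1:**
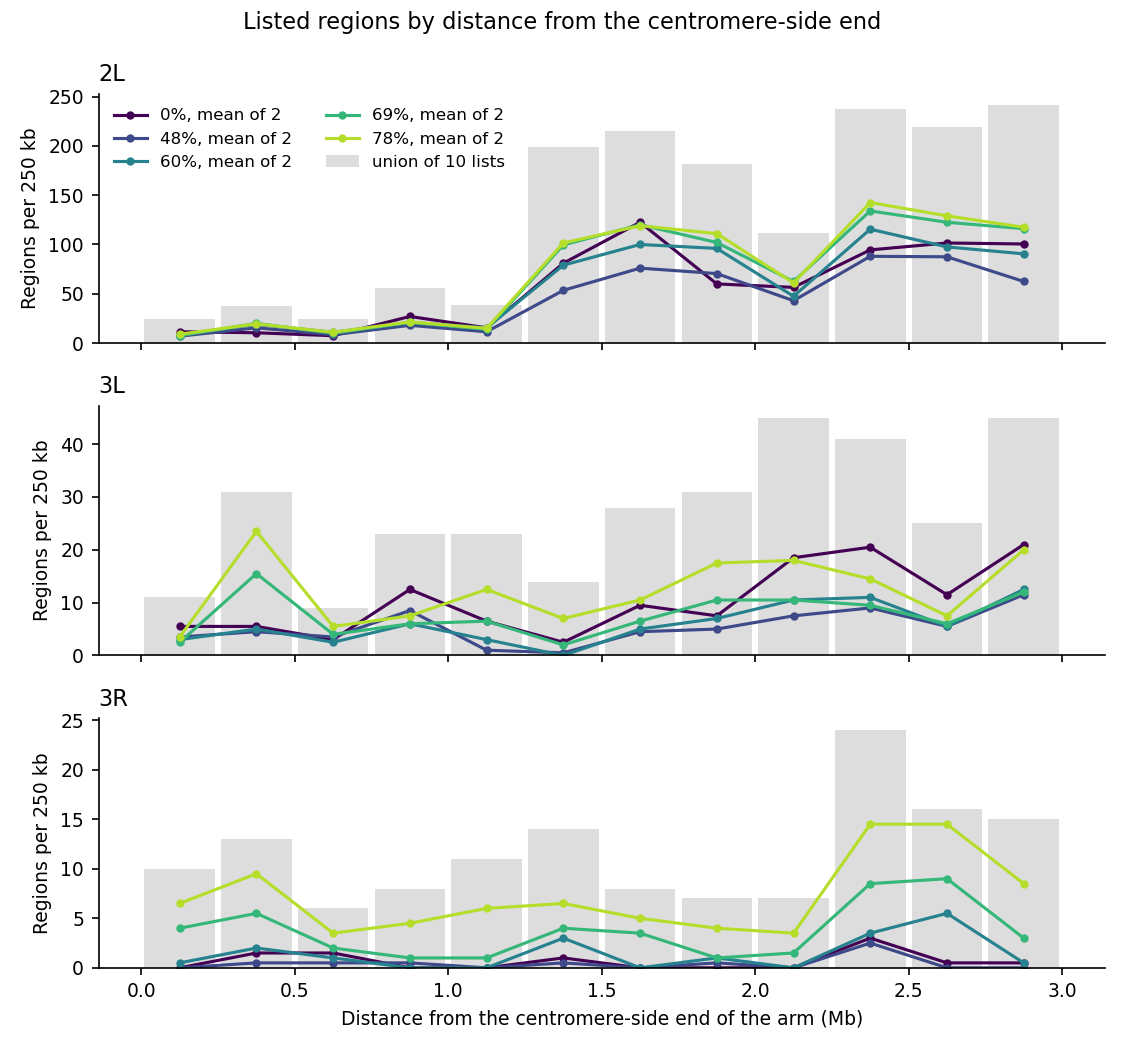
Listed regions per 250 kb (vertical axis) against distance from the centromere-side end of each arm in Mb (horizontal axis); grey bars are the union of the 10 lists and lines are means of the 2 libraries of a stage. On 2L the union has 39 regions from 1000 to 1250 kb and 199 from 1250 to 1500 kb, and on 3R the 78% line lies highest in every bin.

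Gene content differed between the windows and the rest of each arm. The 2L window held 272 protein-coding genes (90.7 per Mb) and the rest of 2L 116 per Mb. Of the 272, 111 were copies of the histone genes in 1 cluster, and without them the window held 161 genes (53.7 per Mb). The 3L window held 14 genes (4.67 per Mb), with a median span of 14611 bp, and the rest of 3L held 109 per Mb with a median span of 2123 bp. The 3R window wholly contained 1 gene, Myo81F, which encodes an unconventional myosin and spans 1965857 bp (3R:567076-2532932). A second gene, Pzl, which encodes a Piezo-like mechanosensitive channel protein, reached into the window from outside (3R:2554162-3263582). Members overlapped a protein-coding gene in 60.3% of cases on 2L, 43.6% on 3L and 78.4% on 3R, and regions of the rest of the arms did so in 72.2%, 73.3% and 75.5%. Only 19 of 326 members on 3L (5.83%) and 1 of 139 on 3R (0.719%) came within 500 bp of the end of a protein-coding gene, against 22.8% in the rest of 3L and 24.1% in the rest of 3R. On 2L the shares were 19.2% in the window and 22.8% in the rest. These shares describe the union and have no replicates. On 3R the spans of Myo81F and Pzl take up most of the window, and few gene ends lie in the windows of 3L and 3R. The shares were not set against the length of gene sequence or the number of gene ends.

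Entries in the windows of 3L and 3R were shorter than those elsewhere on the same arm. The median entry width in a library was 127 to 196 bp in the 3L window and 161 to 327 bp in the rest of 3L, and 101 to 162 bp in the 3R window and 158 to 322 bp in the rest of 3R. The medians of the 3R window rest on 4 to 94 entries per library, with 12 and 7 at 0% and 4 and 8 at 48%. The mean log2 ratio of medians was -0.37 ± 0.21 on 3L and -0.69 ± 0.30 on 3R, below 0 in all 10 libraries (SD, n = 10, two-sided exact sign-flip permutation test, adjusted p = 0.0026 each). On 2L it was -0.0013 ± 0.066 (SD, n = 10, adjusted exact p = 0.965). Against the next 3 Mb of the arm the 3L ratio was -0.10 with an adjusted exact p of 0.0664. The widest members were 3843 bp on 2L, 2119 bp on 3L and 802 bp on 3R.

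The number of libraries that listed a member also set 3R apart in description. Of the 139 regions in the 3R window, 74 were listed in 1 library (53.2%) and 2 in all 10 (1.44%), whereas in the rest of 3R 31.3% were listed in 1 and 15.8% in all 10. In the 3L window 41.7% were listed in 1 library and 7.98% in all 10, and in the rest of 3L 28.8% and 16.8%. The 2L window had 29.0% and 17.0%, and the rest of 2L 31.3% and 15.4%.

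The share of 3R's listed regions that lay in its window differed between stages by more than between the 2 libraries of a stage. It listed 9 and 7 regions at 0%, 3 and 7 at 48%, 18 and 16 at 60%, 53 and 35 at 69%, and 82 and 91 at 78%. Every library of 69% and 78% was above every library of 0%, 48% and 60%. As a share of all regions listed on 3R this was 0.071 ± 0.029% at 0%, 0.059 ± 0.029% at 48%, 0.163 ± 0.015% at 60%, 0.343 ± 0.101% at 69% and 0.651 ± 0.049% at 78% (SD, n = 2 each). The ratio of variance between to variance within stages was 42.3, and 2 of the 945 ways to pair the 10 libraries gave a value as large (exact permutation test, p = 0.00212, adjusted p = 0.00847 over 4 comparisons). With replicate number as a block the adjusted exact permutation p was 0.0667. Of the members in the 3R window, 62.2% were listed per library at 78% on average and 3.6% at 48%, while in the rest of 3R these means were 50.9% and 31.6%. The base of these shares is the union of the same lists. Of its 139 members on 3R, 122 were listed in a library of 78% and 14 in any library of 0% or 48%. The shares thus restate the counts and add no support to them. The share of tags in listed regions given above was lowest at 69% and 78%. The 4 neuron markers together had 31 to 43 listed regions at 69% and 78%, against 16 to 33 at the earlier stages. By gene, brp had 18 to 27 against 6 to 19, and nSyb 4 to 5 against 0 to 3. Syt1 had 8 to 11 against 5 to 12, and elav 1 to 2 against 2. The part of the tag share or of the neuron markers in the 3R values was not tested. The file headers place replicate 1 of every stage and replicate 2 of 48% in 1 dated folder and the 4 other libraries in another. Within the first folder the 3R window listed 9 regions at 0%, 3 and 7 at 48%, 18 at 60%, 53 at 69% and 82 at 78%, and within the second 7 at 0%, 16 at 60%, 35 at 69% and 91 at 78%. With the folder as a term and stages permuted within folders, the adjusted exact permutation p for 3R was 0.0111, in a test added after the data had been seen. Replicates shared fewer regions there than elsewhere: the regions listed by both libraries of a stage made up 0.25 to 0.478 of those listed by either in the 3R window, and 0.56 to 0.725 in the rest of the 3 arms.

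**Figure D2:**
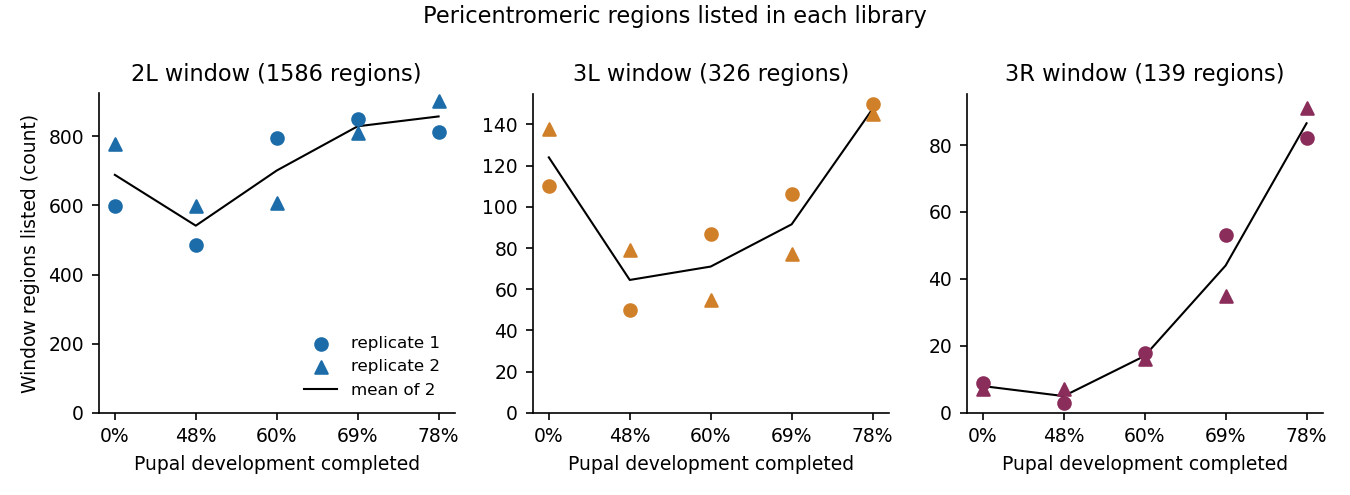
Number of window regions listed (vertical axis) in each library by percentage of the pupal period passed (horizontal axis), in 1 panel per arm; symbols are the 2 replicates and the line is their mean. The 3R panel runs from 3 to 91 regions, with both 78% libraries highest, and the 3L panel has its lowest libraries at 48% and 60%.

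Most entries of the 3R window were short, so the count was repeated with longer ones. Of the 139 regions, 111 (79.9%) were under 200 bp, against 42.9% in the rest of 3R. Keeping only entries of at least 200 bp left 1 and 2 regions at 0%, 2 and 2 at 48%, 4 and 5 at 60%, 14 and 8 at 69%, and 15 and 18 at 78%. The lists run nearly from wide to narrow (Spearman's rho between position and width of -0.985 to -0.967 within a list), so taking the first 41485 entries of each also keeps mainly wide ones. That left 4 and 3 at 0%, 3 and 4 at 48%, 5 and 11 at 60%, 18 and 13 at 69%, and 26 and 28 at 78%. The order of stages from 48% on was unchanged in these counts. The 6 libraries with a short fragment setting had 7 regions at 0% (1 library), 18 at 60% (1 library), 53 and 35 at 69%, and 82 and 91 at 78%. These 3 settings were chosen after the data had been seen. The authors' lists on pooled replicates held 8, 7, 26, 60 and 114 entries in the 3R window from 0% to 78%.

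**Figure D3:**
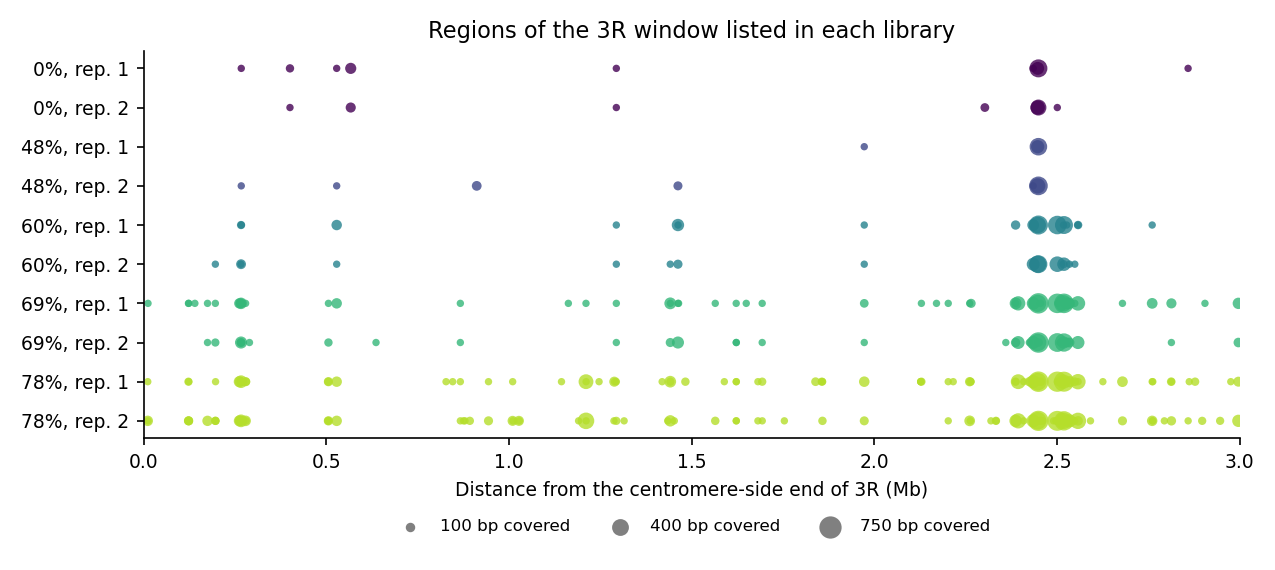
Regions of the 3R window listed in each of the 10 libraries (rows, from 0% at the top to 78% at the bottom) by distance from the centromere-side end of 3R in Mb (horizontal axis); point area is proportional to the bases covered. The 2 regions in all 10 libraries lie near 2.45 Mb, and the rows of 69% and 78% have points across the whole window.

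On 2L and 3L the shares did not pass this test when set against the whole arm, and passed it when set against the next 3 Mb alone (adjusted exact permutation p = 0.0497 for 2L and 0.0487 for 3L). The 2L window listed 599 and 778 regions at 0%, 486 and 597 at 48%, 794 and 608 at 60%, 849 and 809 at 69%, and 812 and 903 at 78%. That was 8.08 ± 0.556% to 8.27 ± 0.198% of the regions listed on 2L at the later stages and 6.9 ± 0.445% at 0% (SD, n = 2 each, exact permutation test, adjusted p = 0.141). The 3L window listed 110 and 138 regions at 0%, 50 and 79 at 48%, 87 and 55 at 60%, 106 and 77 at 69%, and 150 and 145 at 78%. Its share was 1.22 ± 0.0696% at 0%, 0.879 ± 0.203% at 48%, 0.733 ± 0.114% at 60%, 0.796 ± 0.178% at 69% and 1.25 ± 0.201% at 78% (SD, n = 2 each, adjusted exact p = 0.141). The libraries of 0% and 78% were thus the high ones on 3L. In the 1.5 Mb of 3L nearest the centromere, which listed 31 and 40, 19 and 24, 21 and 18, 42 and 31, and 61 and 58 regions from 0% to 78%, the adjusted exact p was 0.0212. For the 3 windows together the share was 3.05 ± 0.252% at 78% and 2.57 ± 0.156% at 0% (SD, n = 2 each, adjusted exact p = 0.254, and 0.0497 against the next 3 Mb).

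**Figure D4:**
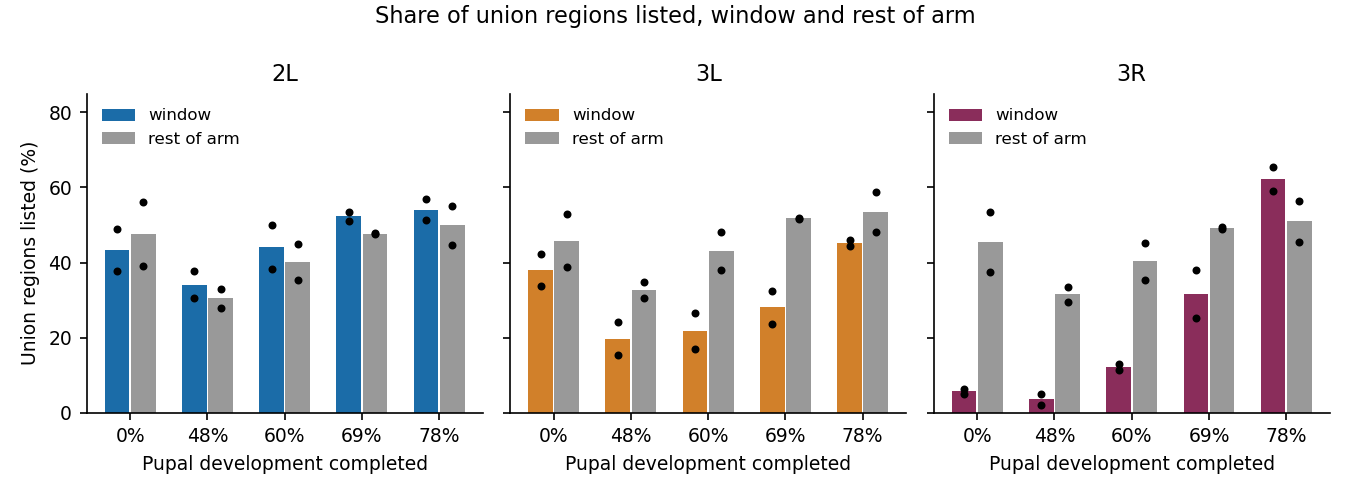
Share of union regions that a library listed (vertical axis, %), by stage (horizontal axis), for the window (coloured, left bar) and the rest of the arm (grey, right bar) of 2L, 3L and 3R; bars are means of 2 libraries and points the libraries. On 3R the window bar is at 62.2% at 78% and 3.6% at 48%, while the grey bar is at 50.9% and 31.6%. The base of each bar is the union of the same lists, so the bars restate the counts.

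Single regions were called opened where both libraries of the later stage and neither of the earlier stage listed them, and closed in the reverse case. Shares are of the regions present in any of the 4 libraries compared. Counts at single genes are given beside all members of the gene, a wider base. Myo81F, Pzl and the list of heterochromatic genes below use the narrower base. A single region carries no test, because an exact permutation of 2 and 2 libraries cannot give a two-sided p under 0.333. At 78% relative to 48%, 297 of the 1555 window regions present in any of the 4 libraries had opened (19.1%) and 54 had closed (3.47%), against 16.5% and 5.26% of all D. melanogaster regions. The arms differed. On 3R 45 of 124 window regions opened (36.3%) and 0 closed, against 15.6% and 3.93% in the rest of 3R. Only 2 members of the 3R window were listed by both 48% libraries. These were in all 10 libraries, so no member could be called closed. Of the 139 members, 122 were listed in a library of 78%. The opened share on 3R thus restates the low counts at 48% and adds no support to them. On 3L 60 of 236 opened (25.4%) and 11 closed (4.66%), against 17.4% and 3.98% in the rest. On 2L 192 of 1195 opened (16.1%) and 43 closed (3.6%), against 15.9% and 3.88%.

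Between neighbouring stages the 3R window also had more opened than closed regions from 48% on. At 60% relative to 48% it had 5 opened and 0 closed of 24 (11.3% and 4.07% of all regions). No member could be called closed there, since the 2 listed by both 48% libraries were in all 10 libraries. At 69% relative to 60% the 3R window had 10 opened and 0 closed of 62 (7.62% and 2.66% of all regions). At 78% relative to 69% it had 13 opened and 1 closed of 133 (3.17% and 4.35% of all regions). Comparisons that share a stage share its libraries and are not independent. These calls restate the counts by library given above and add no support to them.

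At 48% relative to the disc at 0%, the shares in the windows were close to those of the genome. There were 108 opened (8.93%) and 234 closed (19.3%) of 1210 window regions, against 8.84% and 19.8% of all regions. The 3R window had 0 opened and 3 closed of 14. The 3L window had 4 opened of 183 (2.19%) and 36 closed (19.7%), against 9.04% and 19.9% in the rest of 3L. The 2L window had 104 opened of 1013 (10.3%) and 195 closed (19.2%), against 7.25% and 20.8% in the rest of 2L.

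Of the regions in the 3R window, 111 (79.9%) were listed at 69% or 78% and at no earlier stage, compared with 24.4% of the rest of 3R. Only 14 were listed in any library of 0% or 48%. Because listing in any 1 library makes a region a member, these values restate the high counts at the late stages. Most of the 139 regions were assigned to 2 genes, of which Myo81F spans 1965857 bp of the 3 Mb window. Myo81F had 91 regions, of which 5 and 6 were listed at 0%, 3 and 5 at 48%, 12 and 11 at 60%, 32 and 24 at 69%, and 54 and 53 at 78%. The 69% and 78% libraries did not overlap with the earlier ones. At 78% relative to 48% 24 of its 81 regions present at either stage had opened (29.6%) and 0 had closed. In the whole 3R window 36.3% had opened, and in the rest of 3R 15.6% had opened and 3.93% had closed. As stated above, no member of the 3R window could be called closed in this comparison. Pzl had 21 regions in the window, of which 1 and 0 were listed at 0%, none at 48%, 3 and 1 at 60%, 7 and 3 at 69%, and 13 and 14 at 78%, with 8 opened (42.1%) and 0 closed of 19 at 78% relative to 48%. The other 27 members of the 3R window had no protein-coding gene within 10 kb.

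The 2 members of the 3R window found in all 10 libraries lay close together in Myo81F, away from either end of the gene. The region 3R:2448546-2449347 was covered by listed entries over 597 and 472 bp at 0%, 569 and 646 bp at 48%, 669 and 593 bp at 60%, 767 and 769 bp at 69%, and 772 and 756 bp at 78%. Its neighbour 3R:2446713-2447305 was covered over 307 and 377 bp at 0%, 323 and 434 bp at 48%, 503 and 544 bp at 60%, 544 and 556 bp at 69%, and 576 and 574 bp at 78%. In both, the 4 libraries of 69% and 78% were covered furthest, with a tie on 544 bp in the second. Covered length is the authors' called extent and not a signal height.

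Several other regions of Myo81F and Pzl were covered over more than 300 bp in each library of 69% and 78% and over at most 101 bp in any library of 0% or 48%. They were picked after their values were seen. The region 3R:2518555-2519300 was absent from all 4 libraries of 0% and 48%, and was covered over 595 and 336 bp at 60%, 707 and 619 bp at 69%, and 740 and 693 bp at 78%. The region 3R:2500286-2501042 was covered over 101 bp in 1 library of 0%, in none at 48%, and over 636 and 448 bp at 60%, 704 and 650 bp at 69%, and 757 and 733 bp at 78%. The region 3R:2393435-2393862 was listed in the libraries of 69% (376 and 308 bp) and 78% (408 and 428 bp) alone. In Pzl, 3R:2556895-2557387 was covered over 101 bp in 1 library of 60%, 389 and 316 bp at 69%, and 436 and 493 bp at 78%, and was in no library of 0% or 48%. In all, 17 members of the 3R window were listed in every library of 69% and 78% and in none of 0% and 48%. No share over other regions is given for this pattern. With absence at 60% required as well, 8 members of the 3R window remained (5.76%), against 1.25% of the rest of 3R.

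Of the 5 genes with most regions in the 3L window, lovit, l(3)80Fg and FASN3 had their highest library in the disc. The gene lovit, which encodes a vesicular transporter needed for histamine signalling by photoreceptors, had 57 regions over 434041 bp (3L:25236940-25670980). Of these 27 and 29 were listed at 0%, 10 and 20 at 48%, 20 and 10 at 60%, 16 and 12 at 69%, and 20 and 19 at 78%. It had 1 opened and 11 closed regions at 48% relative to 0%, and 5 opened and 2 closed at 78% relative to 48%. The gene l(3)80Fg had 51 regions, of which 18 and 30 were listed at 0%, 7 and 12 at 48%, 13 and 10 at 60%, 13 and 7 at 69%, and 19 and 19 at 78%. It had 0 opened and 6 closed at 48% relative to 0%, and 7 opened and 1 closed at 78% relative to 48%. Among all regions, 8.84% opened and 19.8% closed in the first of these comparisons, and 16.5% and 5.26% in the second. FASN3, a fatty acid synthase gene, had 13 regions with 8 and 7 listed at 0%, 0 and 3 at 48%, 6 and 2 at 60%, 0 and 1 at 69%, and 5 and 1 at 78%. At lovit and FASN3 both disc libraries were above every pupal library, and at l(3)80Fg replicate 1 of 0% lay below the 78% libraries.

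The remaining pair, CG42598 and Dbp80, had their highest libraries at 78%. CG42598 had 11 regions with 2 and 3 listed at 0%, 1 and 4 at 48%, 3 and 1 at 60%, 4 and 2 at 69%, and 7 and 6 at 78%. Of the 11, 5 opened and 0 closed at 78% relative to 48%. The shares of all regions, 16.5% and 5.26%, count only regions present in any of the 4 libraries compared. Dbp80, which encodes a DEAD-box RNA helicase of mRNA export, had 13 regions with 4 and 6 listed at 0%, 4 and 5 at 48%, 4 and 3 at 60%, 5 and 5 at 69%, and 8 and 7 at 78%. All 14 protein-coding genes inside the 3L window had at least 1 member. With Set1, whose span starts outside the window, 15 genes had members, 13 of which had 1 or more listed in every library.

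**Figure D5:**
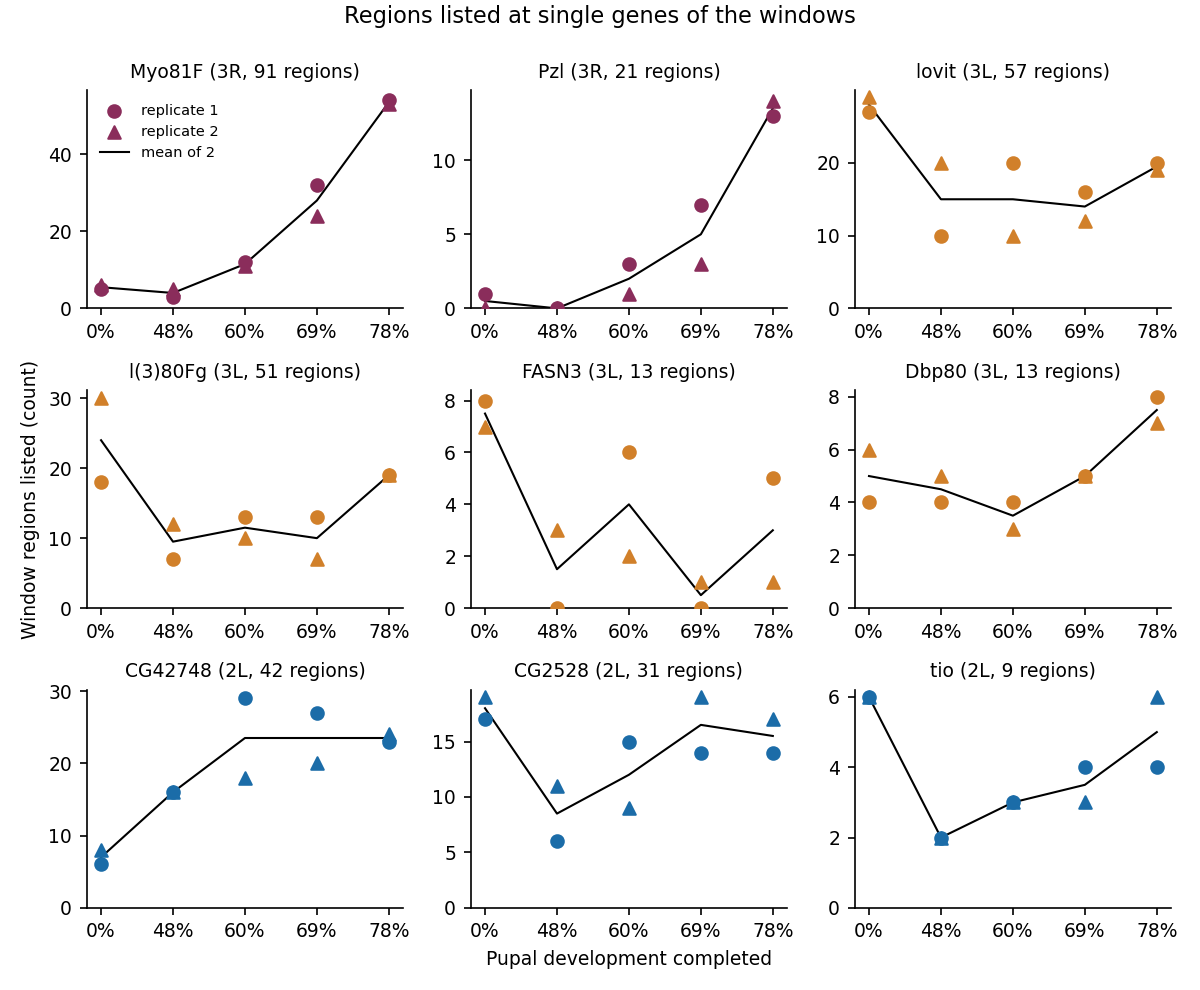
Number of window regions listed per library (vertical axis) by stage (horizontal axis) for 9 genes, with the chromosome arm and number of union regions in each title; symbols are the 2 replicates and the line is their mean. Myo81F and Pzl on 3R have their highest libraries at 78%, with 53 to 54 and 13 to 14 regions, while lovit on 3L has its highest at 0%, with 27 and 29.

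A list of 18 symbols was taken as genes in or next to heterochromatin, and 9 of them had a member in the windows. Every symbol without a member lay outside the windows, such as Haspin on 2R and Set2 and nAChRalpha3 on X, or was missing from the annotation (Parp). The ribosomal protein genes RpL15 and RpL5, vtd, which encodes the Rad21 subunit of cohesin, the translation factor gene eIF4B, Dbp80, lt, which encodes a vesicle trafficking protein, cta, which encodes a G protein alpha subunit of gastrulation, Myo81F and Pzl were the 9 with a member. Without Myo81F and Pzl they had 52 regions, 11 of them in all 10 libraries. Of these 52, 20 and 26 were listed at 0%, 17 and 22 at 48%, 23 and 18 at 60%, 25 and 19 at 69%, and 30 and 20 at 78%, so the stages overlapped. At 78% relative to 48% 5 opened and 3 closed of 41, beside 16.5% and 5.26% of all regions. At 48% relative to 0% 2 opened and 5 closed of 33, beside 8.84% and 19.8% of all regions. The 7 genes other than Myo81F and Pzl each had at least 1 region in all 10 libraries. RpL15 had 7 regions, with 1 to 3 listed in every pupal library and 4 and 5 at 0%. At lt 2 and 3 of 9 regions were listed at 0%, 3 and 4 at 48%, 4 and 3 at 60%, 6 and 3 at 69%, and 5 and 3 at 78%. At eIF4B 2 or 3 of its 3 regions were listed in every library.

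The 2L window, which reaches furthest into gene-rich sequence, held the proximal wing genes tsh and tio. They encode related zinc finger proteins, and tsh is known to mark the hinge and notum part of the fly wing disc. At tio 6 and 6 of 9 regions were listed at 0%, 2 and 2 at 48%, 3 and 3 at 60%, 4 and 3 at 69%, and 4 and 6 at 78%. It had 3 closed and 0 opened at 48% relative to 0%, beside 19.8% and 8.84% of all regions. At tsh 8 and 12 of 25 regions were listed at 0%, 9 and 11 at 48%, 17 and 12 at 60%, 15 and 16 at 69%, and 12 and 18 at 78%, with 2 opened and 1 closed at 48% relative to 0%. The closed one, 2L:21839360-21840877, was covered over 1518 and 1468 bp at 0%, was in neither 48% library, and was covered over 101 to 487 bp in every later library.

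A short list of hormone factors named Hr39 and crc, which both had members in the 2L window. Hr39 encodes a nuclear receptor of the ecdysone response. It had 23 regions in the union, with 4 opened and 6 closed at 48% relative to 0%. Shares of all regions were 8.84% and 19.8% of those present in any of the 4 libraries compared. The bases thus differ, here and for Hr38 and crc. The Hr39 region 2L:21246368-21247766 was covered over 1191 to 1338 bp in all 8 pupal libraries and was in neither disc library. Its regions 2L:21243687-21244806 and 2L:21248190-21249379 were listed in no library of 48% or 60%, against 1038 and 1093 bp and 1099 and 1051 bp covered at 0%. Hr38, which encodes an NGFI-B type nuclear receptor, had 3 opened and 4 closed of its 33 regions at 48% relative to 0%, and 5 opened and 4 closed at 78% relative to 48%. Its region 2L:20699991-20701530 was covered over 1381 and 1319 bp at 0%, by none at 48%, over 483 and 101 bp at 60%, 1269 and 1092 bp at 69%, and 1426 and 1530 bp at 78%. The bZIP factor gene crc had 0 opened and 3 closed of 15 at 48% relative to 0%, and 1 opened and 0 closed at 78% relative to 48%. Of all regions, 16.5% opened and 5.26% closed at 78% relative to 48%. The broadest member absent from a stage lay in Mondo, which encodes a sugar-responsive bHLH factor. The region 2L:21287021-21289520 was covered over 1746 to 2263 bp in the 8 pupal libraries and was in neither library of 0%. Single regions of the 2L window named here were chosen after their values had been seen, among members over 1 kb that both libraries of a stage lacked.

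The genes with most regions on 2L were CG42238 (83 regions), nolo (44), CG42748 and CG43739 (42 each) and CG31612 (37). At CG42748 6 and 8 regions were listed at 0%, 16 and 16 at 48%, 29 and 18 at 60%, 27 and 20 at 69%, and 23 and 24 at 78%, and 11 opened and 2 closed at 48% relative to 0%, the most opened of any gene in the windows. CG42238, the gene with most regions, had the most closed at 48% relative to 0%, 13, with 7 opened. It also had 10 opened and 4 closed at 78% relative to 48%. Genes with more regions can rank higher by count alone. Of all regions, 8.84% opened and 19.8% closed at 48% relative to 0%, and 16.5% and 5.26% at 78% relative to 48%. CG31612 and CG2528 had 7 closed each at 48% relative to 0%, with 2 and 0 opened, level with CG46307. CG2528 had 17 and 19 of 31 regions listed at 0%, 6 and 11 at 48%, 15 and 9 at 60%, 14 and 19 at 69%, and 14 and 17 at 78%. Ac3, an adenylyl cyclase gene, had 5 opened and 2 closed at 48% relative to 0%, and CG2201 had 4 opened and 0 closed.

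At 78% relative to 48% the most opened regions in the windows lay in Myo81F (24) and CG42238 (10), followed by Pzl (8) and then CG43739 (7, with 0 closed), level with l(3)80Fg and CG46307. The most closed lay in CG42238 and Hr38 (4 each), in CG9328 (3, with 2 opened) and in Ret, a receptor tyrosine kinase gene (3, with 1 opened). At nolo, which encodes an extracellular matrix protein, 4 opened and 0 closed at 78% relative to 48%. Of all regions, 16.5% opened and 5.26% closed in this comparison, and the ranking follows in part the number of regions per gene.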

How the data were processed

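The values are region coordinates that the authors deposited in 1 list per library. Per the file headers, regions were called with HOMER findPeaks in its histone style with a 100 bp window, a Poisson p-value threshold of 0.001 and an assumed genome size of 120 Mb, without an input control. Per the submitters' processing notes, Bowtie2, Picard, SAMtools, MACS2 and HOMER were used with dm6; their settings, and how reads with several matches were treated, are not given in the sources used here. The deposited score is the constant 1 and ranks nothing, so shorter lists were taken by list order, which follows entry width closely (Spearman's rho of -0.985 to -0.967) and so acts as a width filter. D. biarmipes lists were not used here. Coordinates are counted from 1.

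Overlapping entries were merged, and a library listed a region if an entry shared at least 1 base with it. Regions were assigned to the protein-coding gene they overlapped, or to the nearest within 10 kb, from RefSeq gene spans of the same assembly; strand and exons were not used. Densities used arm lengths up to the last listed base. Tests were exact permutations over libraries, with Benjamini-Hochberg adjustment over 3 arms and their sum, run in Python 3.11.15 with SciPy 1.17.1 and tested on simulated data. Members, lists and tests were chosen with earlier results of these data known. Named genes were the 5 with most members per window, up to 4 with most opened and 4 with most closed members at 48% relative to 0% and at 78% relative to 48%, and listed genes with a member. Depth limits which regions pass the caller, and region lists allow no counting interval for signal. No sequence of these regions was used here.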

Additional observations from a re-analysis of the deposited data

How the results depend on the processing

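The lower density in the windows kept its direction under every alternative run, and its side of the threshold in every run with a test. Runs with a replicate left out or with 1 value per stage had no test, since 5 values cannot give a sign-flip p under 0.0625. Mean log2 ratios were -3.18 to -1.6 for the 3 arms together. For 3R, bins of 1 kb and the inner 1.5 Mb gave no value because a library listed nothing there. The 3R stage difference kept its side of the threshold in all alternatives but 1: with replicate number as a block, stages permuted within numbers, the adjusted exact p was 0.0667 for 3R (unadjusted 0.0167, smallest possible 0.00833). With the dated folder of the headers as a term, added after the data had been seen, it was 0.0111. Deviations of same-numbered libraries correlated at -0.064 to 0.059, over 0.1 in 0 of 10 pairs of stages. These correlations do not test a block effect on the window share. For the 3 arms together, replicate 1 had the higher share at 0% (2.68% and 2.46%), 60% (2.80% and 2.69%), 69% (2.92% and 2.66%) and 78% (3.23% and 2.88%). At 48% it had the lower one (2.64% and 2.90%). Against the next 3 Mb alone the stage test passed for the 3 arms together and for 2L (adjusted exact p = 0.0497 each) and for 3L (0.0487), and in the inner 1.5 Mb for 3L (0.0212). The cause was not tested. The share at 78% minus that at 48%, in percentage points, was 0.288 for the 3 arms together and -0.0197 to 0.596 with a replicate left out, -0.191 and -0.725 to 0.342 for 2L, 0.37 and 0.0848 to 0.656 for 3L, and 0.592 and 0.536 to 0.647 for 3R. The width ratio was lost for the 3 arms together in the first 50% of each list (-0.033) and against the next 3 Mb (-0.011), for 3R in the first 50% (-0.11) and for 3L against the next 3 Mb (-0.10), and for 2L it turned positive in the first 50% (0.0093). Since list order nearly follows width, the first 50% holds the widest entries and narrows any width ratio by construction.

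Counts of opened and closed regions moved with the list and the unit used, by construction. At 48% relative to 0% they were 54 opened and 145 closed in the first 50% of each list, 69 and 91 in bins of 1 kb, 20 and 46 in the inner 1.5 Mb, 173 and 497 in the authors' pooled lists, and 174 to 218 and 353 to 458 with a replicate left out. At 78% relative to 48% they were 155 and 23 in the first 50%, 99 opened in bins of 1 kb, 99 closed at 50% coverage, 77 and 14 in the inner 1.5 Mb, 758 and 102 in the pooled lists, and 612 to 624 and 107 to 168 with a replicate left out. More regions closed than opened at 48%, and more opened than closed at 78%, in each of these. The same order held for all regions in the main run, so it is not particular to the windows. There, 8.84% opened and 19.8% closed at 48% relative to 0%, and 16.5% and 5.26% at 78% relative to 48%. Both comparisons use the 48% lists, which were among the shortest.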

Other observations

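The replication-dependent histone genes, 111 copies between 2L:21416953 and 2L:21541681, lie inside the 2L window and were almost empty of listed regions. Their 124729 bp held 4 union regions, of which 2 to 4 were listed in each library over 357 to 532 bp, while the 200000 bp on either side held 310 regions, of which 114 to 184 were listed. The copies are near-identical in sequence, so values at single copies are uncertain. The part of read placement in the low count was not tested.

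The widest member of all, 2L:23370839-23374681, lay in the last 250 kb of 2L with no protein-coding gene within 10 kb. Listed entries covered 1967 and 1854 bp of it at 0%, 1770 and 2000 bp at 48%, 3371 and 3443 bp at 60%, 3746 and 3668 bp at 69%, and 3739 and 3755 bp at 78%, so the libraries from 60% on did not overlap with the earlier ones. On 3L, 2 regions with no protein-coding gene within 10 kb were absent from all libraries of 0% and 48%. The region 3L:25708364-25709806, which overlaps lncRNA:CR45180, was covered over 101 and 260 bp at 60%, 990 and 647 bp at 69%, and 1347 and 1357 bp at 78%. The region 3L:27662968-27664463 was covered over 805 and 514 bp at 69%, and 1360 and 1257 bp at 78%, and in no earlier library. These 3 regions were chosen after their values had been seen.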
